A study of Mus musculus with 8 samples.

Results

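Serpins are proteins of one shared fold, most of which block serine proteases, and 40 of the 21532 gene rows measured in the livers of db/db mice carry a Serpin symbol followed by a clade letter from a to i and a number. Rows were chosen by that symbol alone, with no use of their values. They fall into clade A with 21 rows, clade B with 9, clade E with 3, clade F with 2, and 1 row each in clades C, D, G, H and I. RNA from the livers of 8 male db/db animals was sequenced, with 1 library per mouse. In these mice the leptin receptor is defective, which leads to obesity and diabetes. Both groups carry that defect, so no lean or wild-type mouse enters the comparison. From 8 weeks of age, 4 mice received the control and 4 mice received AF1 peptide, each at 5 mg/kg by retro-orbital injection, 2 times per week for 5 weeks. AF1 peptide is a synthetic peptide derived from estrogen receptor α that carries a TAT stretch for entry into cells and a FITC dye. The comparison asks which liver transcripts differed after AF1 peptide treatment.

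A serpin presents an exposed loop, the reactive center loop, as bait to a protease, and the cut loop folds into the body of the serpin and traps the enzyme. The liver secretes the plasma serpins, which restrain neutrophil elastase, thrombin, plasmin and the complement proteases, while clade B serpins mostly stay inside cells. Some members inhibit nothing and serve as hormone carriers or as a collagen chaperone. Mice hold expanded sets of Serpina1 genes, copies of the gene for α-1-antitrypsin, and of Serpina3 genes, relatives of the gene for antichymotrypsin.

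Depth was 35260283 to 45117528 reads per mouse in control mice and 23031880 to 43978158 reads in AF1 peptide-treated mice. Values are normalized counts, a gene's reads divided by 1 size factor per library. Of all libraries, AF1 peptide replicate 1 stood apart, with a score of -74.2 on the first principal component (39.3% of the variance) where the other 7 mice had scores of -2.33 to 21.8. It had the highest value of the 8 mice in 25.9% of the 15989 genes tested and the lowest in 23.4%. Its mitochondrial share of reads was 20.8%, against 22.4 to 34.3% in control mice and 34.3 to 37.8% in AF1 peptide replicates 2 to 4. The summed level of 6 hepatocyte markers was 2392175 to 2544785 normalized counts in control mice and 2091183 to 2515116 in AF1 peptide replicates 2 to 4, which fits tissue labelled as liver, and was 1686735 in replicate 1. The markers went both ways in that mouse, where Alb, Apoa1 and Ttr were at their lowest and Cps1, Tat and Cyp2e1 at their highest, at 3.96, 5.8 and 1.46 times the mean of the other 7 mice. Log2 fold changes of single genes are given with and without this library. Because whole liver was sequenced, fewer cells of a type and less RNA per cell cannot be told apart.

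The loop gives each copy its protease preference, so the coding bases of the loop are shown for the 5 Serpina1 copies. The stretch begins at the conserved loop hinge and runs for 66 bases of the GENCODE M21 transcript, and capitals mark the positions that differ among the copies.
Serpina1a: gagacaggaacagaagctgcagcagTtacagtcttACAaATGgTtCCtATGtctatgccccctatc
Serpina1b: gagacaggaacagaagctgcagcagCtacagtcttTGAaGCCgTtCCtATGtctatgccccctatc
Serpina1c: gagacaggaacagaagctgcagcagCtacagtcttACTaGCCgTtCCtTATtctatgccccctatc
Serpina1d: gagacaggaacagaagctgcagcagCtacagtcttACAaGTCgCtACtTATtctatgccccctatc
Serpina1e: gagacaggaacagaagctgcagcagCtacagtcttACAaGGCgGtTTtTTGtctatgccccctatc
Of the 66 bases, 13 differed among the Serpina1 copies, and pairs of copies differed at 4 to 8 bases. All of the differing positions lay in the middle of the stretch, and the bases before and after them were identical in all 5 copies. The same stretch is shown for the 4 Serpina3 copies with the highest mean values, again with the differing positions in capitals.
Serpina3k: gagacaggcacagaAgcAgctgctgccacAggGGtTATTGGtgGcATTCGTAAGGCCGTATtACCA
Serpina3m: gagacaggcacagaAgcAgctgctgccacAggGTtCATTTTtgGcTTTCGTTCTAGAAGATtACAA
Serpina3n: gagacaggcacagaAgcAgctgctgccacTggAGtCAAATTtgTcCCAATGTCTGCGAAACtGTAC
Serpina3g: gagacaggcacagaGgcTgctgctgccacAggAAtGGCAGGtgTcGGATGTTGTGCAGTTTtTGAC
Among these 4 genes 32 of the 66 bases differed, with 14 to 25 differences per pair, and the differing positions were crowded into the later part of the stretch. The Serpina3 loops thus differed at more bases than the Serpina1 loops.

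Near-identical copies also share reads, which bears on the values of single copies. The share of a gene's 50-base transcript words that another gene also holds was 74.2% for Serpina1c, 57.6% for Serpina1a, 50.9% for Serpina1d, 34.6% for Serpina1e and 29.5% for Serpina1b. Serpina1a and Serpina1c were the closest pair, with 69.4% of the words of Serpina1c also present in Serpina1a. Part of the Serpina1 words lay in Gm8893 as well, a separate row of the table. The Serpina3 copies shared less, with 21.9% for Serpina3h, 19.1% for Serpina3m, 14% for Serpina3k, 15.5% for Serpina3g and 6.9% for Serpina3n. Serpina3k and Serpina3m shared words mainly with each other, and their annotated exons overlap on the same strand. How the authors counted reads that match several genes is not given in the sources used here, so values of single Serpina1 and Serpina3 copies are uncertain and sums over the copies are given beside them. Of the 40 members, 12 shared no word with another gene, among them Serpina6, Serpina7, Serpina12, Serpind1, Serpinf1, Serpinf2, Serping1 and Serpinh1. Outside these copies, 35.7% of the words of Serpina11 lay in Gm28577, which overlaps it on the same strand.

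**Figure D1:**
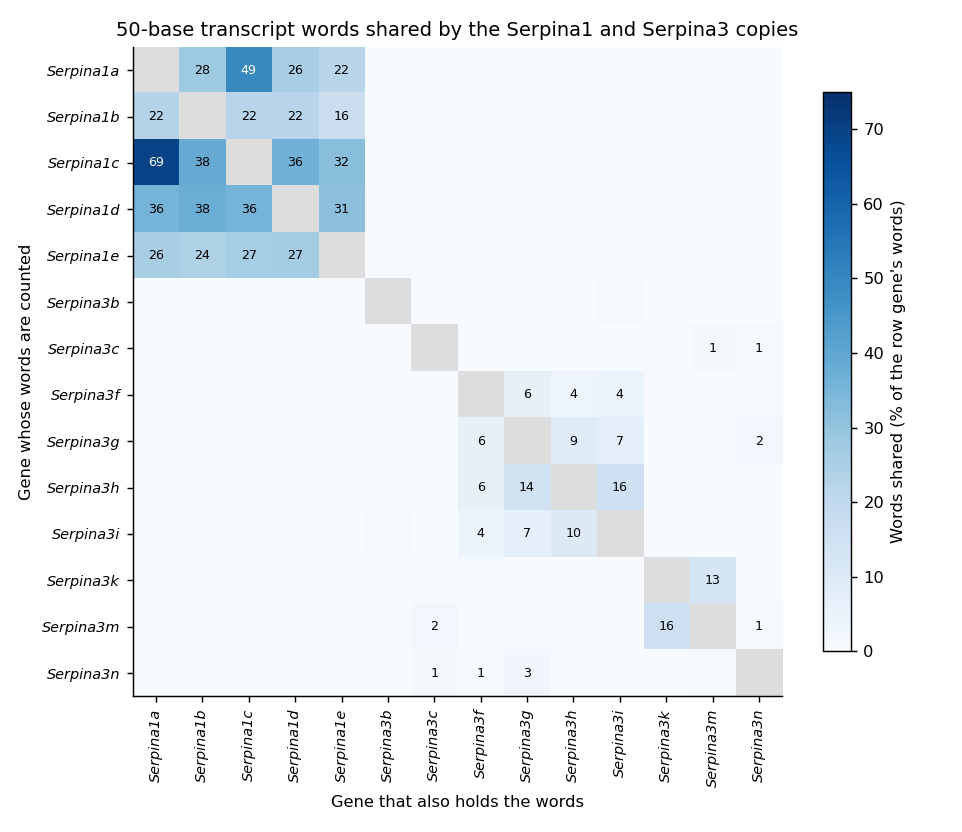
Percent of the 50-base transcript words of each Serpina1 and Serpina3 copy (rows) that each other copy (columns) also holds, with the value printed in a cell where it is at least 1. The 5 Serpina1 copies form 1 block of sharing, with the highest value of 69.4% for Serpina1c with Serpina1a, while no word is shared between the Serpina1 and Serpina3 sets.

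The Serpina1 copies also share sequence before their start sites, shown here because the copies other than Serpina1e had the highest levels of the family. The stretches are 80 bases of the RefSeq promoter windows (GRCm38.p6, chromosome 12), and capitals mark GTTAAT, part of the site of the liver transcription factor HNF1.
Serpina1a (chr12:103863625-103863704, minus strand): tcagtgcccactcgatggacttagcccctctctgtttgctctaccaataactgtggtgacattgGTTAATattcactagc
Serpina1b (chr12:103738200-103738279, minus strand): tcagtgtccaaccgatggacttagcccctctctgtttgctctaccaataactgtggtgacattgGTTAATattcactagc
Serpina1c (chr12:103904962-103905041, minus strand): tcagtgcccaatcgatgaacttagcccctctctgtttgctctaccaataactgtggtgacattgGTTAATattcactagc
Serpina1d (chr12:103773634-103773713, minus strand): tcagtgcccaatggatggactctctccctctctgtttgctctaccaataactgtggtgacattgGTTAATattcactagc
Serpina1e (chr12:103956960-103957039, minus strand): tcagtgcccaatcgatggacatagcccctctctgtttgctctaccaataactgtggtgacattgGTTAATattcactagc
These windows lay upstream of the gene, and their last base was 1 to 63 bases before the annotated start site. Among the 5 stretches 10 of the 80 positions differed, and the 55 bases nearest the start were identical. GTTAAT, searched on both strands in the 250 bases before the start and with no other motif, was present in 5 of 5 Serpina1 promoters, in 9 of 36 promoter entries of the family (25%) and in 2113 of 32851 promoters of all genes (6.43%). The 9 entries include the 5 Serpina1 promoters, whose bases around the motif are identical, so they are not independent matches. The match describes letters in the window and does not show that the factor binds there.

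Levels spanned the whole range from blood protein genes to genes near the detection limit. Together the 40 rows took 1.02 to 1.56% of all reads in 7 mice and 2.67% in AF1 peptide replicate 1. Clade A held 80.3 to 87.9% of the Serpin reads, and clade C, which is antithrombin alone, 6.24 to 12.1%. On the scale of mean normalized counts per kilobase of exon, Serpina1b was first at 65041, followed by Serpina1c at 53960.3, Serpina1d at 40257 and Serpina1a at 35529. The order of these 4 is uncertain, since the placing of shared reads is not known. Below them came Serpina3k at 18401, Serpina6 at 6950.3, Serpina1e at 6201, Serpinf1 at 6127 and Serpinc1 at 5991 per kilobase. The values by mouse of Serpina6, Serpina1e, Serpinf1 and Serpinc1 overlapped on this scale, so these neighbors were not separated by their spread. Exon length is the union of all annotated exons of a gene, 8546 bases for Serpinc1 and 1394 for Serpina1d. In plain normalized counts the mean of Serpinc1 was 51199, above Serpina3k at 37851 and below Serpina1d at 56119. The place of Serpinc1 per kilobase thus depends on that length. Lower levels ran from Serping1 at 3386 per kilobase through Serpina10 at 742 and Serpinb8 at 12.4 to Serpinb9b at 0.38.

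**Figure D2:**
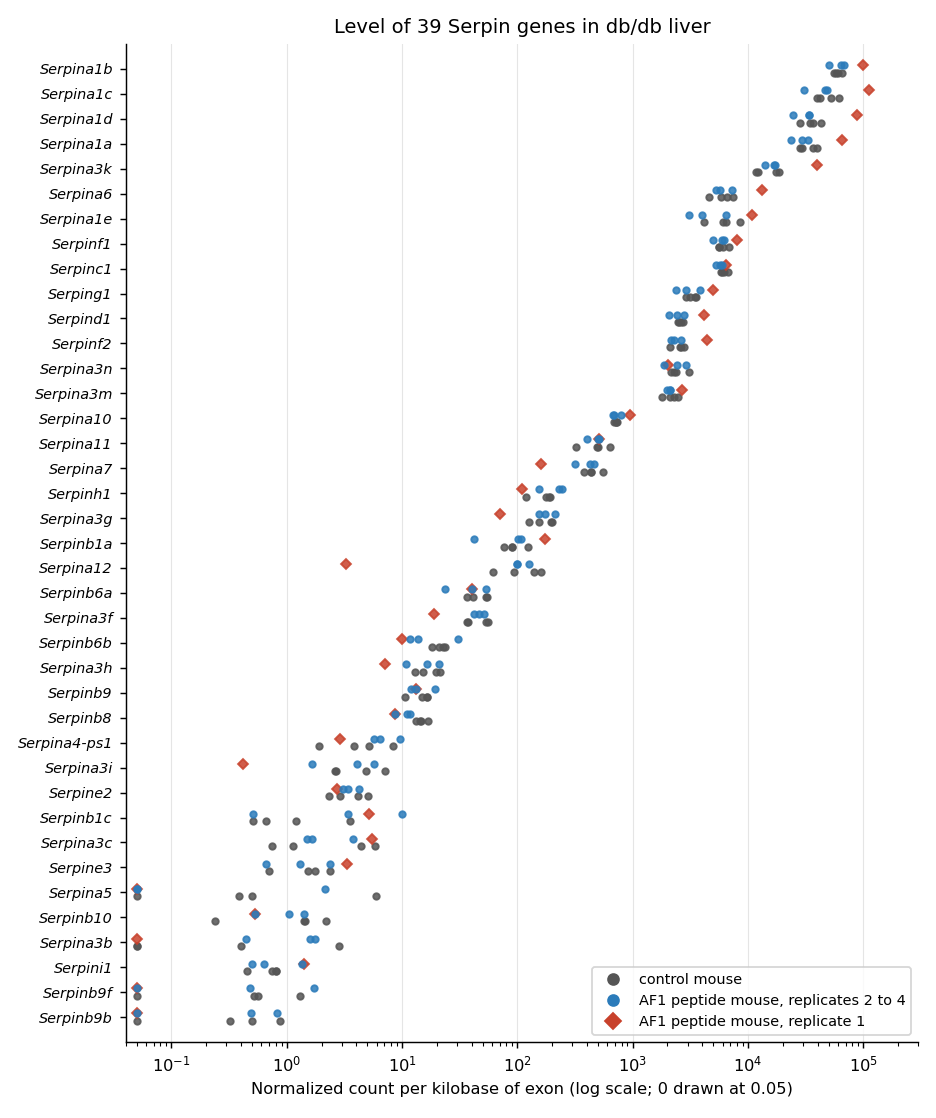
Level of 39 of the 40 Serpin genes in normalized counts per kilobase of exon (log axis, zeros drawn at 0.05), ordered by the mean over the 8 mice, with 1 point per mouse. Red diamonds, AF1 peptide replicate 1, lie to the right of the other mice in most genes at the top and to the left in many genes below them, with Serpina12 far to the left.

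Between AF1 peptide-treated and control livers, no Serpin gene was higher and 1 was lower at an unadjusted p value under 0.05 in limma. The gene that was lower was Serpinb8. Of the 40 rows, 29 had a mean of at least 10 normalized counts and were tested, with a log2 fold change (AF1 peptide minus control) on the log2(normalized count + 1) scale, which understates the change of low genes. Over all 15989 genes tested, the same threshold called 3.16% higher and 3.03% lower (6.19% in either direction), so the count among the Serpin genes was near the background. After Benjamini-Hochberg adjustment in limma, 0 Serpin genes and 0% of all genes passed 0.05, and the adjusted p values of the 29 genes ran from 0.763 to 0.996. The edgeR and DESeq2 tests on the recovered reads gave 0 Serpin genes at an adjusted p value under 0.05, and Serpinb8 had an unadjusted p value under 0.05 in both. Serpinb8 was also called lower in limma without AF1 peptide replicate 1, where 10.1% of all genes were called in either direction. Values of the groups overlapped in 28 of the 29 genes, and the exception was Serpinb8, in a table where the groups did not overlap in 3.9% of genes, with AF1 peptide lower in 1.85% and higher in 2.05%. The median log2 fold change was 0.011 over the tested Serpin genes and -0.0083 over all genes. In sign, 15 genes were higher and 14 lower, in a table where 51.8% of genes were lower, but with libraries scaled to equal totals 7 were higher and 22 lower, and without AF1 peptide replicate 1 there were 9 higher and 20 lower.

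**Figure D3:**
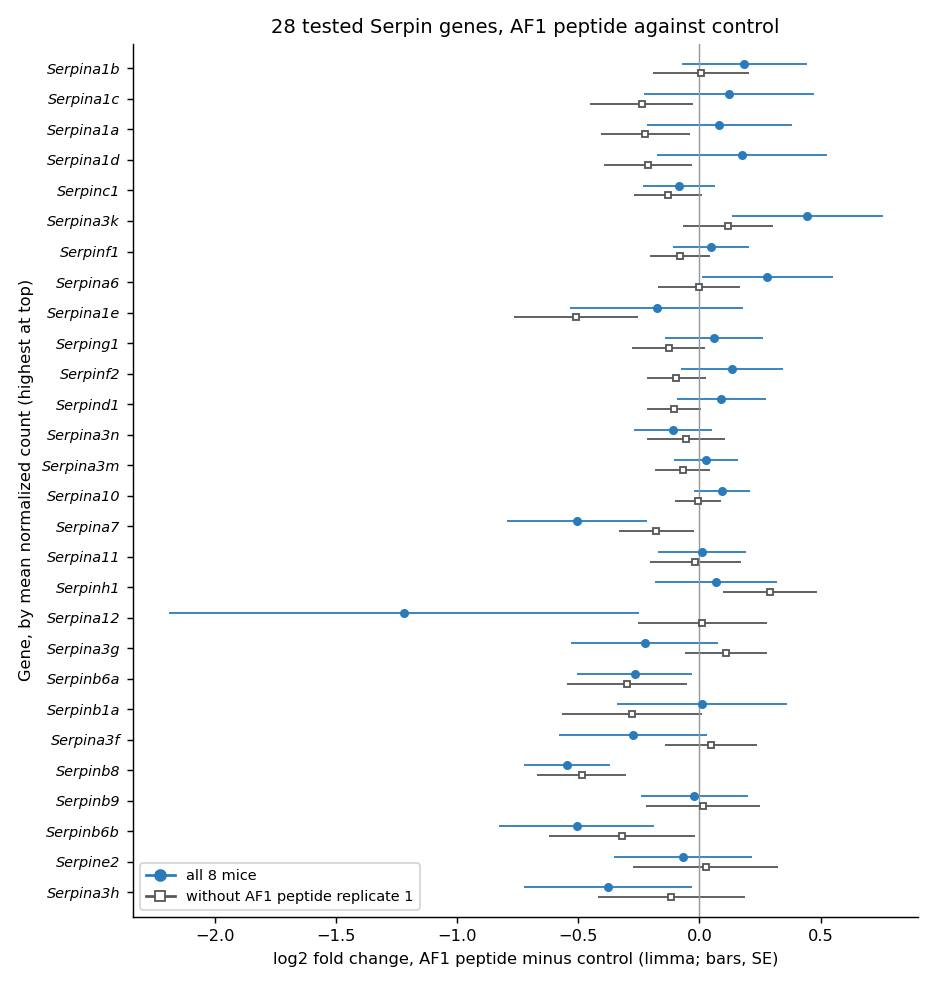
Log2 fold change of 28 of the 29 tested Serpin genes (horizontal axis, AF1 peptide minus control, bars are the SE from limma) with all 8 mice (filled circles) and without AF1 peptide replicate 1 (open squares), ordered by mean normalized count. The open squares of most abundant genes lie to the left of the circles, the median moving from 0.091 to -0.095, and Serpina12 moves from -1.22 to 0.012.

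Most of the 15 Serpin genes with a mean of at least 1000 normalized counts had their highest value in a single mouse. Most of these 15 genes encode secreted plasma proteins. AF1 peptide replicate 1 was the highest of the 8 mice in 13 of the 15 and the lowest in 0, where it was highest in 35.3% and lowest in 18.9% of the 3255 tested genes at that level. The exceptions were Serpinc1 and Serpina3n. With all mice 12 of the 15 genes had a higher mean log2 value after AF1 peptide and 3 a lower one, and without this mouse 3 were higher and 12 lower. With equal library totals and all mice the split was 7 higher and 8 lower. The SD was larger in the AF1 peptide group than in the control group for 15 of 15 genes, and for 6 of 15 without this mouse. Across the 14 genes with means from 10 to 1000 the same mouse was lowest in 8 and highest in 1, where it was lowest in 24.6% and highest in 23.5% of the 12734 tested genes at that level. AF1 peptide replicate 3 was the lowest mouse in 10 of the 29 tested Serpin genes and in 17.9% of all genes tested. Those Serpin genes include the Serpina1 copies, Serpinc1, Serpind1, Serpinf1 and Serping1. Replicate 3 stays in the comparison when replicate 1 is left out.

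**Figure D4:**
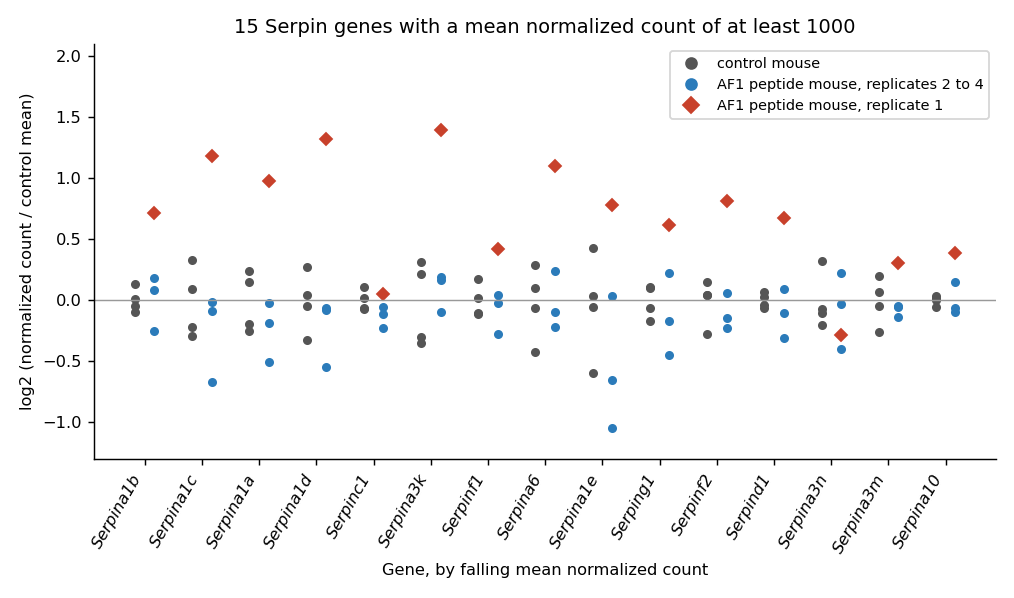
Log2 of the normalized count over the control mean for the 15 Serpin genes with a mean of at least 1000 normalized counts, ordered by mean, with 1 point per mouse. AF1 peptide replicate 1 (red diamond) is the highest point in 13 genes, and the other AF1 peptide-treated mice lie within or near the control range.

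The Serpina1 genes are copies of the gene for α-1-antitrypsin, the main plasma inhibitor of neutrophil elastase. Their loops differ, and whether each copy inhibits elastase was not tested. Summed over the 5 copies, normalized counts were 387545, 303334, 291828 and 345159 in control mice and 650227, 333984, 244941 and 336979 in AF1 peptide-treated mice. AF1 peptide replicate 1 lay far above the other 7 mice, and the remaining AF1 peptide-treated mice overlapped with control. The sums were 331966 ± 43566 in control mice and 391533 ± 177670.0 in AF1 peptide-treated mice (SD, n = 4 each), a log2 difference of group means of 0.24, and -0.12 without replicate 1. Adding Gm8893 gave 0.23 and, without that mouse, -0.13.

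Among the copies, Serpina1b had normalized counts of 158477, 135173, 140104 and 145516 in control mice and 238064, 164599, 121399 and 153270.0 in AF1 peptide-treated mice. The AF1 peptide values spanned the control range, and replicate 1 was 1.64 times the mean of the other 7 mice. Its log2 fold change was 0.18 ± 0.26 (SE) with a limma p value of 0.49, and 0.0066 without replicate 1. Serpina1c, the copy with the largest share of words held in common, measured 83849, 57278, 54366 and 70918 in control mice and 150943, 62573, 41785 and 65808 in AF1 peptide-treated mice. Replicate 1 was 2.42 times the mean of the others, and AF1 peptide replicate 3 was the lowest mouse. Serpina1c had a log2 fold change of 0.12 ± 0.35 (SE) with a limma p value of 0.734, and -0.24 without replicate 1.

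Serpina1a measured 71942, 53317, 51186 and 67504 in control mice and 120153, 53555, 42970.1 and 60082 in AF1 peptide-treated mice. Only replicate 1 of the AF1 peptide group exceeded the control range, and replicate 3 lay under it. For Serpina1d, values were 59510.1, 47718, 39432 and 50756 in control mice and 123561, 46779, 33832 and 47362 in AF1 peptide-treated mice. Its replicate 1 was 2.66 times the mean of the other mice, the largest ratio of the 5 copies. Serpina1e, the copy with the lowest level, measured 13767, 9849, 6739.8 and 10465 in control mice and 17506, 6478, 4955 and 10457 in AF1 peptide-treated mice. Replicate 1 was again the highest, while replicates 2 and 3 lay below every control mouse. Log2 fold changes were 0.081 ± 0.30 (SE) for Serpina1a, 0.18 ± 0.35 (SE) for Serpina1d and -0.18 ± 0.36 (SE) for Serpina1e, with limma p values of 0.791, 0.625 and 0.632. Without replicate 1 they were -0.22, -0.21 and -0.51, and the direction of Serpina1a also turned with equal library totals, to -0.0098.

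Shares within the Serpina1 sum differed in replicate 1 as well. Serpina1b made up 36.6% of the sum in that mouse and 40.9 to 49.6% in the other 7. Serpina1d made up 19.0% against 13.5 to 15.7%, and Serpina1c 23.2% against 17.1 to 21.6%. Serpina1a, at 18.5%, lay within the 16.04 to 19.6% of the other mice. Whether the shares move with the placing of shared reads was not tested.

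The Serpina3 genes are relatives of the gene for antichymotrypsin, and several encode plasma inhibitors of trypsin-like or chymotrypsin-like proteases. Their 9 rows summed to normalized counts of 47618, 45659.6, 33572 and 33525 in control mice and 90139, 44586, 37772 and 43114 in AF1 peptide-treated mice. Control replicates 3 and 4 were the lowest and AF1 peptide replicate 1 the highest, with the other AF1 peptide-treated mice inside the control range. The sums were 40094 ± 7599.8 in control mice and 53903 ± 24334 in AF1 peptide-treated mice (SD, n = 4 each), a log2 difference of 0.43, and 0.061 without replicate 1.

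Serpina3k, which encodes contrapsin, an inhibitor of trypsin-like proteases in mouse plasma, carried most of that sum. Its normalized counts were 38215, 35738, 24952 and 24218 in control mice and 81152, 34558, 28803 and 35170.4 in AF1 peptide-treated mice. Replicate 1 was 2.56 times the mean of the other 7 mice, and AF1 peptide replicates 2 to 4 lay within the control range. The log2 fold change of Serpina3k was 0.45 ± 0.31 (SE), with a limma p value of 0.181 and an adjusted p value of 0.789, and it was 0.12 without replicate 1. Serpina3k made up 90.03% of the Serpina3 sum in replicate 1 and 72.2 to 81.6% in the other mice.

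Serpina3n, an acute phase gene whose product inhibits granzyme B and leukocyte elastase, had normalized counts of 4729, 6358, 4419 and 4848 in control mice and 4169, 5945, 4988 and 3852 in AF1 peptide-treated mice. Here replicate 1 was inside the range of the other mice, and the groups overlapped. Serpina3m, which shares words with Serpina3k, measured 4274, 3112, 3610.4 and 3898 in control mice and 4603, 3594, 3383 and 3603 in AF1 peptide-treated mice. Replicate 1 was the highest by a small margin over control replicate 1. Log2 fold changes were -0.11 ± 0.16 (SE) for Serpina3n and 0.027 ± 0.13 (SE) for Serpina3m, with limma p values of 0.511 and 0.841, and the direction of Serpina3m turned to -0.064 with equal library totals and to -0.069 without replicate 1, where Serpina3n was at -0.054. The low copies had the opposite order in replicate 1. Serpina3g, which encodes an intracellular inhibitor of cathepsins, ranged over 267 to 416 in control mice and 147 to 445 in AF1 peptide-treated mice, Serpina3f over 83.7 to 126 in control mice and 42.9 to 117 in AF1 peptide-treated mice, and Serpina3h over 18.4 to 30.5 in control mice and 10.3 to 29.7 in AF1 peptide-treated mice. In all 3 of these genes replicate 1 was the lowest mouse, at 0.404, 0.407 and 0.428 times the mean of the other 7. Log2 fold changes were -0.23 ± 0.30 (SE), -0.27 ± 0.30 (SE) and -0.38 ± 0.34 (SE), and none had a limma p value under 0.05 (0.471, 0.391 and 0.299). Without replicate 1 they were 0.11, 0.049 and -0.12.

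Clade A also holds serpins that carry hormones. Serpina6 encodes corticosteroid-binding globulin, and its normalized counts were 13125, 8018, 10263 and 11511 in control mice and 23023, 12701, 10032 and 9243 in AF1 peptide-treated mice. Replicate 1 was 2.15 times the mean of the other mice, and the remaining mice of both groups overlapped. Its log2 fold change was 0.28 ± 0.27 (SE) with a limma p value of 0.322, and 0.000173 without replicate 1. Serpina7, the gene for thyroxine-binding globulin on the X chromosome, measured 931, 1362, 1059 and 1064 in control mice and 389, 1037, 769 and 1133 in AF1 peptide-treated mice. In this gene replicate 1 was the lowest mouse, the opposite of Serpina6, and replicate 3 was also below the control range. The log2 fold change was -0.50 ± 0.29 (SE) with a limma p value of 0.111 and an adjusted p value of 0.77, and -0.18 without replicate 1. In the fit with a replicate block, which called 7.78% of all genes in either direction, the p value was 0.0320, and with equal library totals 0.0335.

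Serpina12 encodes vaspin, an adipokine that inhibits a tissue kallikrein. Its normalized counts were 228, 347, 595 and 514 in control mice and 12.1, 367, 465 and 369 in AF1 peptide-treated mice. The low value belonged to replicate 1, at 0.0294 times the mean of the other mice, and the other 3 AF1 peptide-treated mice lay within the control range. The log2 fold change was -1.22 ± 0.97 (SE) with a limma p value of 0.237, and 0.012 without replicate 1. On the recovered reads it was -0.47 in both edgeR and DESeq2, with p values of 0.490 and 0.597. Serpina10 encodes the protein Z-dependent protease inhibitor, which acts on clotting proteases, and measured 2527, 2404, 2509 and 2558 in control mice and 3278, 2769, 2386 and 2337 in AF1 peptide-treated mice. Control mice spanned a narrow range, replicates 1 and 2 of the AF1 peptide group were above it and replicates 3 and 4 below it. Its log2 fold change was 0.094 ± 0.12 (SE), with a limma p value of 0.435, and -0.0048 without replicate 1. Serpina11 ranged over 532 to 1038 in control mice and 658 to 834 in AF1 peptide-treated mice, with a log2 fold change of 0.011 ± 0.18 (SE) and a limma p value of 0.953, and -0.017 without replicate 1.

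The serpins of clades C and D inhibit thrombin, and clade F holds the main inhibitor of plasmin. Serpinc1, the gene for antithrombin, had normalized counts of 56744, 53278, 50391 and 50220.1 in control mice and 54470.0, 48829, 44906 and 50757 in AF1 peptide-treated mice. The groups overlapped, replicate 1 was inside the control range, and the lowest mouse was AF1 peptide replicate 3. Serpinc1 had a log2 fold change of -0.084 ± 0.15 (SE), with a limma p value of 0.585, and -0.13 without replicate 1. Exons of Zbtb37 overlap it on the opposite strand, and whether counting used the strand is not given in the sources used here. Serpind1, the gene for heparin cofactor II, another thrombin inhibitor, measured 5786, 5503, 5426 and 5943 in control mice and 9055, 6055, 4560.5 and 5283 in AF1 peptide-treated mice. Control mice lay close together, with replicate 1 of the AF1 peptide group 1.64 times the mean of the other 7 and replicates 3 and 4 below every control mouse. Its log2 fold change was 0.091 ± 0.18 (SE) with a limma p value of 0.63, turning to -0.10 without replicate 1 and to -0.00037 with equal library totals.

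Serpinf2 encodes the plasmin inhibitor α-2-antiplasmin, and its normalized counts were 6501, 4848, 6048 and 6019.6 in control mice and 10298, 6093, 5013 and 5301 in AF1 peptide-treated mice. Again 1 mouse stood above the rest, and the other AF1 peptide-treated mice lay within the control range. Serpinf1, its neighbor in clade F, encodes pigment epithelium-derived factor, which is secreted and inhibits no protease, and measured 15968, 14325, 13146 and 13074 in control mice and 18959, 14588, 11659.8 and 13906 in AF1 peptide-treated mice. Replicate 1 was highest and replicate 3 lowest. Serping1 encodes the C1 inhibitor, which restrains the first complement proteases and plasma kallikrein, and measured 8123, 8171, 6720.3 and 7262 in control mice and 11575, 8862, 5544 and 6722 in AF1 peptide-treated mice. AF1 peptide replicates 1 and 2 were above the control mice and replicate 3 below them. Fold changes on the log2 scale were 0.13 ± 0.21 (SE) for Serpinf2, 0.047 ± 0.16 (SE) for Serpinf1 and 0.060 ± 0.20 (SE) for Serping1, with limma p values of 0.536, 0.767 and 0.774. All 3 turned without replicate 1, to -0.095, -0.080 and -0.13, and Serpinf1 and Serping1 also turned with equal library totals, to -0.044 and -0.031.

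In clade B, whose members mostly act inside cells, 5 of 9 rows were tested, and 1 of them was called. Over all genes tested, limma called 3.03% lower and 3.16% higher. Serpinb8, which encodes an intracellular inhibitor able to block furin, had normalized counts of 63.5, 68.9, 79.99 and 69.5 in control mice and 42.0, 42.0, 52.7 and 56.02 in AF1 peptide-treated mice. All 4 AF1 peptide-treated mice were below all 4 control mice. The group values were 70.5 ± 6.91 in control mice and 48.2 ± 7.27 in AF1 peptide-treated mice (SD, n = 4 each). The log2 fold change was -0.55 ± 0.18 (SE) with a limma p value of 0.0106 and a Benjamini-Hochberg adjusted p value of 0.763, and without replicate 1 it was -0.49 with a p value of 0.0228. The gene rests on 497 reads over the 8 libraries. An unadjusted p value under 0.05 was reached in 19 of 19 alternative settings, with p values from 0.00343 to 0.0353, and the adjusted p value in those settings ran from 0.476 to 0.994.

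In the other 4 tested clade B genes the groups overlapped. Serpinb6b had normalized counts of 41.2, 51.2, 47.6 and 53.6 in control mice and 22.4, 31.05, 26.4 and 68.9 in AF1 peptide-treated mice. AF1 peptide replicates 1 to 3 were below every control mouse and replicate 4 above every one. Its log2 fold change was -0.51 ± 0.32 (SE) with a limma p value of 0.144, and -0.32 without replicate 1. It was -0.84 with a p value of 0.00423 without AF1 peptide replicate 4, where 7.53% of all genes were called in either direction. Serpinb6a, a cytoplasmic inhibitor gene, ranged over 198 to 296 in control mice and 128 to 291 in AF1 peptide-treated mice, and exons of Nqo2, Ripk1 and 1110046J04Rik overlap it on the opposite strand. Serpinb1a, which encodes an inhibitor of neutrophil proteases, ranged over 177 to 287 in control mice and 97.2 to 396 in AF1 peptide-treated mice, with replicate 1 the highest mouse and replicate 3 the lowest. Serpinb9, the gene for an inhibitor of granzyme B, ranged over 37.1 to 57.3 in control mice and 42.0 to 67.04 in AF1 peptide-treated mice. Log2 fold changes were -0.27 ± 0.24 (SE), 0.011 ± 0.35 (SE) and -0.022 ± 0.22 (SE), with limma p values of 0.288, 0.976 and 0.924, and without replicate 1 they were -0.30, -0.28 and 0.015. The direction of Serpinb1a thus turned without that mouse, and it also turned with equal library totals, to -0.080.

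Clades E and H hold genes with low to moderate levels here. Serpine2, the gene for protease nexin, ranged over 19.3 to 42.3 in control mice and 22.4 to 34.9 in AF1 peptide-treated mice. Serpinh1 encodes the collagen chaperone of the endoplasmic reticulum and ranged over 289.8 to 466 in control mice and 267 to 589.8 in AF1 peptide-treated mice, with replicate 1 the lowest mouse. Their log2 fold changes were -0.066 ± 0.29 (SE) and 0.069 ± 0.25 (SE), with limma p values of 0.821 and 0.792, and 0.026 and 0.29 without replicate 1. Serpinh1 turned to -0.022 with equal library totals.

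**Figure D5:**
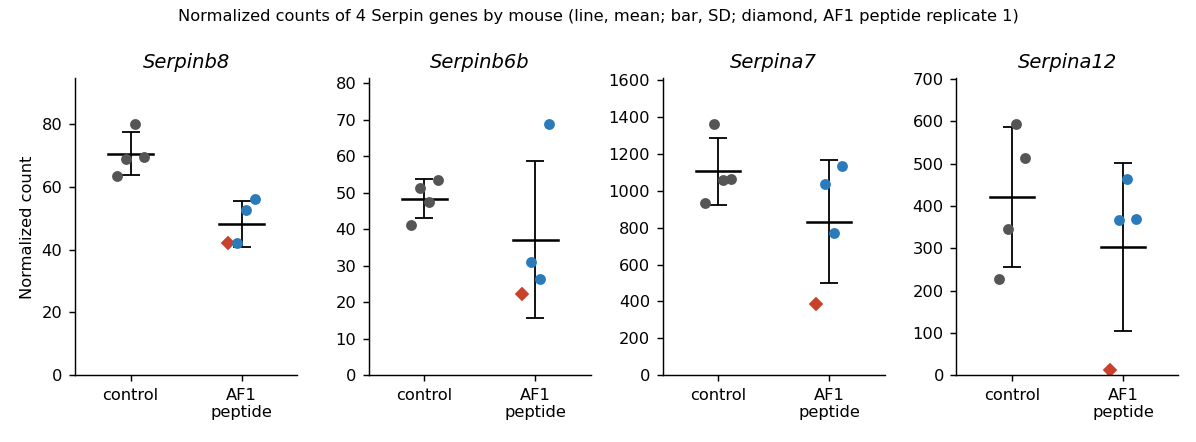
Normalized counts of Serpinb8, Serpinb6b, Serpina7 and Serpina12 in each mouse (vertical axis), by group, with the mean (line) and SD (bar, n = 4). Of these genes the groups are apart for Serpinb8 alone, AF1 peptide replicate 4 lies above the control mice for Serpinb6b, and AF1 peptide replicate 1 (diamond) is the lowest mouse for Serpina7 at 389 and for Serpina12 at 12.1.

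The 11 members with a mean under 10 normalized counts were Serpina3b, Serpina3c, Serpina3i, Serpina4-ps1, Serpina5, Serpinb10, Serpinb1c, Serpinb9b, Serpinb9f, Serpine3 and Serpini1. Their values in single mice ran from 0 to 16.4, where 3 reads correspond to 2.47 to 5.48 normalized counts depending on the library. They were not tested. Serpina5, the gene for the protein C inhibitor, and Serpini1, the gene for neuroserpin, belong to this set.

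Angiotensinogen, a serpin by sequence whose symbol Agt lies outside the naming rule, was highest in the same mouse as the abundant secreted members. Its normalized counts were 20041, 17586, 18632 and 17418 in control mice and 30963, 21034, 17404 and 18150.0 in AF1 peptide-treated mice. That mouse was AF1 peptide replicate 1, and the others overlapped. Its log2 fold change was 0.21 ± 0.18 (SE) with a limma p value of 0.271, and 0.032 without replicate 1.

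The proteases that serpins meet, and the inhibitors of other families, were examined beside them. At an unadjusted p value under 0.05, limma called 3.16% of all genes tested higher and 3.03% lower. Of 29 listed target proteases, 24 were tested, and 0 were higher and 1 was lower at that threshold (4.17% called), near the background. That gene was Prss8, which encodes prostasin, with 947 ± 217 in control mice and 687 ± 189 in AF1 peptide-treated mice (SD, n = 4 each), a log2 fold change of -0.48 ± 0.20 (SE), a p value of 0.0403 and an adjusted p value of 0.763. Replicate 1 was the lowest mouse, and without it the log2 fold change was -0.34 with a p value of 0.0882, no longer called. Prss8 was also not called without control replicate 2, 3 or 4 or without AF1 peptide replicate 2 or 4. Ctsl, the gene for cathepsin L, was the 1 target protease called lower without AF1 peptide replicate 1, where 5.48% of all genes were lower. Its log2 fold change in that fit was -0.51, with a limma p value of 0.00106 (adjusted p value 0.452). All mice gave -0.19 ± 0.27 (SE) and a limma p value of 0.493, and replicate 1 was its highest mouse. The most abundant target proteases were prothrombin, F2, with 28024 ± 3409.8 in control mice and 27070.3 ± 5987 in AF1 peptide-treated mice, and plasminogen, Plg, with 20636 ± 3073 in control mice and 21132 ± 5785 in AF1 peptide-treated mice (SD, n = 4 each). The median log2 fold change of the list was 0.0070. Of 28 inhibitors of other families, 24 were tested and 0 were called in either direction by limma, edgeR or DESeq2, with a median of 0.016. Without replicate 1 the median was -0.11, and Itih2 and Cstb were lower and Timp3 higher at that threshold, with log2 fold changes of -0.30, -0.43 and 0.28. That fit called 10.1% of all genes in either direction. The most abundant were fetuin, Ahsg, with a log2 fold change of -0.078 ± 0.20 (SE), and kininogen, Kng1, with 0.20 ± 0.18 (SE) (-0.20 and 0.080 without replicate 1). All 30 acute phase genes were tested and 0 were called in either direction by limma (edgeR and DESeq2 each called 1 higher), with a median of 0.051, and the most abundant, haptoglobin (Hp) and hemopexin (Hpx), had log2 fold changes of -0.039 ± 0.20 (SE) and 0.015 ± 0.20 (SE), and -0.000667 and -0.089 without replicate 1. Without AF1 peptide replicate 1, 5 of the 30 acute phase genes were lower at that threshold (Apcs, Crp, Fga, Fgg and Steap4, 0 with all mice), where 5.48% of all genes were lower. Without control replicate 2, 5 of the 30 were higher (Saa1, Saa2, Lcn2, Mt2 and Il1r1), where 1.78% of all genes were higher.

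Summed markers of most other cell types were lowest in the same mouse that stood apart in the Serpin genes, but single markers did not all follow the sums. The summed level of 7 Kupffer cell and macrophage markers was 4106 to 4948 normalized counts in control mice, 4698 to 4932 in AF1 peptide replicates 2 to 4, and 2018 in replicate 1. Of these 7 genes, 1 (Adgre1) was lower at an unadjusted p value under 0.05 in limma (0.0339, and 0.0768 without replicate 1). With all mice, 3.03% of all genes tested were called lower. Of the 7 macrophage markers, 6 were at their lowest in replicate 1. The 5 neutrophil markers in the table summed to 50.8 to 100.5 in control mice, 51.4 to 110.4 in replicates 2 to 4 and 31.7 in replicate 1, and the 7 lymphocyte markers to 217 to 329, 214 to 283 and 189. Of the neutrophil markers 2 were lowest in replicate 1. Of the lymphocyte markers 5 were lowest in replicate 1, but the T cell genes Cd3e and Cd8a were highest there, at 2.56 and 2.20 times the mean of the other mice. For the 7 stellate cell and fibroblast markers, the sums were 2998 to 4960, 3417 to 6451 and 2423, with 4 of the genes lowest in replicate 1. The 5 cholangiocyte markers summed to 1193 to 1799, 1246 to 2291 and 803, with 1 gene (Spp1) lowest in that mouse, and the 6 sinusoidal endothelium markers to 4084 to 4759, 3627 to 4612 and 3819, within the range of the other mice. Platelet markers, at 259 to 271 in control mice, 267 to 359 in replicates 2 to 4 and 339.7 in replicate 1, were not lower in that mouse. Sums of 3 mesothelium markers were 11.7 to 128.6 in control mice and 7.47 to 169.9 in AF1 peptide-treated mice, of 1 pancreas marker 193 to 249.7 and 181 to 221, and of 2 fat markers 20.1 to 103.8 and 11.2 to 60.3. The part of cell makeup in the Serpin values was not tested.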

How the data were processed

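Liver RNA-Seq of 4 control and 4 AF1 peptide-treated db/db mice was used, grouped by the sample labels. The authors trimmed reads with Trim Galore 0.6.7, aligned them to mm39 (build per the submitters' processing notes) with HISAT2, sorted the alignments with SAMtools 1.17 and took gene counts with GenomicAlignments. They deposited a signal per gene and mouse, namely its reads over one size factor for each library. Whole reads came out for 100% of 172256 deposited values (within 0.01 read). No sample column was left unmapped and replicates were not pooled. Total reads per mouse give the depth, and intervals or floors of 3 reads cover counting error only. Pairs of libraries within a group differed by chi-square values of 12.2 to 264 per degree of freedom, so none was a duplicate.

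The log2(normalized count + 1) of the 15989 genes with a mean of at least 10 was tested with limma 3.58.1 (R 4.3.3), two-sided, with variances that follow the intensity trend. A gene was called at an unadjusted p value under 0.05, the threshold in the study's RNA-Seq methods, and Benjamini-Hochberg adjusted p values over all genes are given beside it. The procedure was tested on simulated data. The members, gene lists and cell type markers were chosen with earlier results of these data known. Members with a mean of at least 1000 or a p value under 0.05 were described in every mouse, other tested members by ranges, and of each list the called genes and the 2 most abundant. Serpina7, Serpina12 and Serpinb6b were given by mouse, and some of the list genes called only with a mouse left out were named, after their values were seen. The values of 1 member are not reported here. Shared 50-base words and loop bases came from GENCODE M21 transcripts (GRCm38), the loop from the longest open reading frame, exon lengths from that annotation, and promoters from RefSeq (GRCm38.p6), which held an entry for 31 of the 40 members. As these are of another build than mm39, no coordinates were carried to the deposited table. Alternatives were pseudocounts of 0.5 and 5, no filter or 10 in every mouse, TMM factors, equal totals, no trend, each gene's own variance, a replicate block, DESeq2 1.42.0, edgeR 4.0.16, and each mouse left out. Adding Gm8893 to the Serpina1 sum was chosen after seeing the data.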

Additional observations from a re-analysis of the deposited data

Results flagged for a closer look

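Of 62 groups of 4 values examined (each tested Serpin gene, and the summed Serpina1 and Serpina3 copies, in each treatment group), 5 had a mouse far from the other 3 by Dixon's gap ratio, the gap to the nearest mouse over the whole range. Chance gives about 1 in 20, or 3.1 of 62, for independent groups. These groups are not independent, since copies share reads and the sums hold rows also counted singly, so that count is only a rough guide. AF1 peptide replicate 1 was that mouse in 3 of the 5. It was the highest of its group for Serpina3k (gap ratio 0.878), for the summed Serpina3 copies (0.87), most of which is Serpina3k, and for Serpina1d (0.849). The remaining cases were AF1 peptide replicate 4. It was the lowest of its group for Serpina11 (0.897), at 658 normalized counts against 816 to 834 in the other 3, and the highest for Serpinb9 (0.835), at 67.0 against 42.0 to 46.1.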

How the results depend on the processing

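The count of Serpin genes called lower was 1 with all mice and 0 at an adjusted p value. It was 2 with no filter, with equal totals, under the replicate block, in DESeq2 and in edgeR. Over all genes, limma called 990 of 15989 in either direction in the main fit, 1284 of 21532 with no filter and 898 of 15989 with equal totals. DESeq2 called 1008 of 15989 and edgeR 1036 of 15989. With each mouse left out, the count of Serpin genes called lower ran from 1 to 3. The 3 came without AF1 peptide replicate 4 (Serpinb8, Serpinb6b and Serpina7), where 7.53% of all genes were called in either direction. The count called higher stayed 0 in every setting run. Mice with the same replicate number deviated together with correlations of -0.064 to 0.235 (mean 0.103), 2 of 4 over 0.1. Mice with different numbers had correlations of -0.272 to 0.137 (mean -0.034). Deviations were taken from each group's own mean, which ties this mean to that of the same numbers, so it is no separate baseline. Of the control mice 2 of 4, and of the AF1 peptide-treated mice 2 of 4, correlated best with their own number. These few values do not settle whether the number pairs the mice. The replicate block raised the Serpin genes called lower to 2 (Serpinb8 and Serpina7) and the acute phase genes called higher from 0 to 2, and all genes called from 990 to 1244. Target proteases called lower, 1 with all mice, were 0 without the intensity trend, with each gene's own variance and at an adjusted p value, and 0 to 1 with a mouse left out (Ctsl in place of Prss8 without AF1 peptide replicate 1). Other antiproteases called lower, 0 with all mice, were 1 with equal totals and 0 to 2 with a mouse left out, and those called higher 0 to 1. The 2 lower and the 1 higher came without AF1 peptide replicate 1, where 10.1% of all genes were called in either direction. Acute phase genes called higher were 1 in edgeR and 1 in DESeq2, and 0 to 5 with a mouse left out (5 without control replicate 2, where 1.78% of all genes were higher), and those called lower 0 to 5 (5 without AF1 peptide replicate 1, where 5.48% of all genes were lower). The cause of these differences was not tested.

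Of the 29 tested Serpin genes, 10 kept their direction in all 19 alternatives. The p value was under 0.05 in 19 of 19 alternatives for Serpinb8, in 3 for Serpina7 and in 1 for Serpinb6b. With equal totals, where the median over all genes was -0.0987, the log2 fold change turned to -0.080 for Serpina11, -0.0098 for Serpina1a, -0.064 for Serpina3m, -0.080 for Serpinb1a, -0.00037 for Serpind1, -0.044 for Serpinf1, -0.031 for Serping1 and -0.022 for Serpinh1. Serpina11 also turned in edgeR (-0.026) and DESeq2 (-0.021). With each mouse left out in turn, the log2 fold changes that turned ran from -0.0048 to 0.16 for Serpina10, -0.17 to 0.15 for Serpina11, -1.70 to 0.012 for Serpina12, -0.22 to 0.27 for Serpina1a, -0.24 to 0.38 for Serpina1c, -0.21 to 0.41 for Serpina1d, -0.51 to 0.10 for Serpina1e, -0.43 to 0.049 for Serpina3f, -0.42 to 0.11 for Serpina3g, -0.069 to 0.10 for Serpina3m, -0.22 to 0.0031 for Serpina3n, -0.28 to 0.39 for Serpinb1a, -0.17 to 0.054 for Serpinb9, -0.10 to 0.23 for Serpind1, -0.25 to 0.12 for Serpine2, -0.080 to 0.15 for Serpinf1, -0.095 to 0.25 for Serpinf2, -0.13 to 0.23 for Serping1 and -0.093 to 0.29 for Serpinh1. The summed Serpina1 copies ran from -0.12 to 0.41 and the summed Serpina3 copies from 0.061 to 0.56, both lowest without AF1 peptide replicate 1. Values of the 11 members under 10 normalized counts rest on few reads.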
